A study of Mus musculus with 6 samples.

Results

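The miR-10 and miR-196 families are microRNAs (miRNAs, short RNAs that repress target transcripts) encoded inside the Hox gene clusters. Their members were taken from the array by name, as mmu-miR-10a, mmu-miR-10b, mmu-miR-196a and mmu-miR-196b with the star strands left out (the mouse prefix is dropped below). They were 4 of the 611 mouse miRNAs on the array and 10 of its 1857 probes. Total RNA came from mouse embryonic stem (ES) cells of the line EB3, strain background 129/Ola, and 100 ng per sample was labelled with Cy3 and hybridised to a single-colour Agilent array. The titles mark 3 samples as Activin (-), named EB3_control by their source, and 3 as Activin (+), named as differentiated with Activin. They are called control and activin here, with the replicate number of the title. Activin, a TGF-beta superfamily protein, is used in culture to direct ES cells towards mesoderm and endoderm. The growth text is the same for all 6 samples and describes 3 days as embryoid bodies and 15 days on gelatin, with Activin at 10 ng/ml throughout and harvest on day 18. It does not say how the control cells were grown. Nor do the labels say that the replicates were grown apart. The p-values then reflect only how far these 6 samples spread, which may be technical.

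Hox genes give cells their position along the head-to-tail axis. They are largely silent in pluripotent cells and are switched on from one end of each cluster to the other as the trunk forms, and the miRNA genes between them tend to be transcribed together with their neighbours. miR-10 and miR-196 act on Hox transcripts among other targets, and miR-196 is known for cleaving the Hoxb8 transcript.

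The mature sequences show what the families share and how little separates the members of each. They are RefSeq's (GRCm38.p6), to which all 4 names were matched as the arm from the 5′ side of the hairpin, and are printed 5′ to 3′ with the seed, bases 2 to 8, in capitals.
miR-10a: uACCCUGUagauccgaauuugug
miR-10b: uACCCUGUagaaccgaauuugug
miR-196a: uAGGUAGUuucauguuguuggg
miR-196b: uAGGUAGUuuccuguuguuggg

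miR-10a and miR-10b, of 23 bases each, differed by U12A, counted from 1 at the 5′ end with the base of miR-10a given before the position. miR-196a and miR-196b, of 22 bases each, differed by A12C. Within a family the seeds were identical, and among 1679 mature mouse names in the table the 2 miR-10 names alone carried ACCCUGU and the 2 miR-196 names alone carried AGGUAGU. The array files give no probe sequences, so the share of a probe's signal that comes from the other member of its family is not known here.

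All 5 genes of these miRNAs lay within Hox clusters. Mir10a (chr11:96317186-96317208 for the mature arm, plus strand) lay within the annotated span of Hoxb3, between Hoxb5 and Hoxb4. Mir10b (chr2:74726074-74726096, plus strand) lay within the spans of Hoxd3 and Hoxd4. miR-196a has a pair of genes with the same mature sequence, which the array cannot tell apart. Mir196a-1 (chr11:96265187-96265208, plus strand) lay between Hoxb13 and Hoxb9, and Mir196a-2 (chr15:102973365-102973386, plus strand) between Hoxc10 and Hoxc9. Mir196b (chr6:52230129-52230150, minus strand) lay between Hoxa9 and Hoxa10. The miR-10 genes thus sat beside group 4 Hox genes and the miR-196 genes beside group 9 genes.

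The arrays differed in brightness, and this limits every value that follows. The 75th percentile of signal over the 59 probes detected on all 6 arrays was 249 and 177 intensity units on control 1 and activin 2 and 427 to 616 on the others. A spot counted as well above background only from 48.2 units upwards on activin 2, against lowest values of 26.3 to 38.0 on the other 5 arrays. Of the 79 miRNAs that were tested, 25 were not detected on activin 2, and 1 or none on each other array. The software's own quality metrics were also out of range. Its metric for the spread of replicate spots failed on control 1 and activin 2, with a median coefficient of variation of 17.6% and 15.8%. It was 6.88% to 9.59% on the others. The metric for the labelling spike-in was out of range on all 6 arrays. Of 11 ES and epiblast marker miRNAs 10 were detected on at least 1 array, while of 6 blood markers none was.

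miR-196a was detected on all 6 arrays and miR-10a, miR-10b and miR-196b on 5, each missing from activin 2 alone. A miRNA counted as detected where more than 0.5 of the spots of at least 1 of its probes were well above background. All 4 members passed the filter of the test, detection on all 3 arrays of at least 1 group, and did so through the control arrays in the case of the 3 that activin 2 lacked. The software's own call per miRNA gave 5 arrays for miR-10a and miR-10b and 6 for miR-196a and miR-196b.

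No member passed the threshold in the comparison of activin with control. The fit covered the 79 tested miRNAs (limma, Benjamini-Hochberg over all 79, threshold 0.05) and called 1 of them, miR-302c, or 1.27%. It called 0 of 4 members. In bulk RNA, fewer cells with a miRNA cannot be told apart from less of it per cell. All 4 log2 fold changes were below 0, as were those of 29 of the 79 tested miRNAs, and 9 of the 79 but no member had an unadjusted p under 0.05. The median of the members was -0.11 beside 0.17 over all tested miRNAs. The signal of an array was divided by its 75th percentile before taking log2, and all levels below are log2 of that scaled signal.

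**Figure D1:**
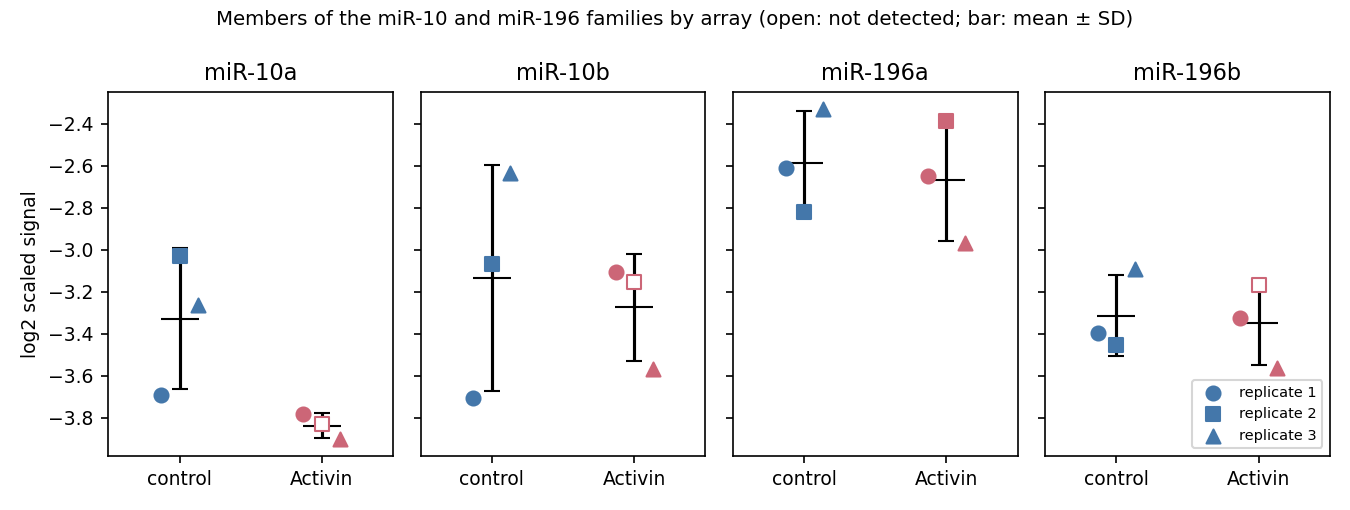
Log2 scaled signal of each member on the 3 control and 3 activin arrays, with the mean and SD as bars and open symbols where the miRNA was not detected. The miR-10a values of the activin arrays lie below those of all control arrays, by 0.09 at the closest, and the groups overlap for the other members.

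miR-10a, from the Hoxb cluster, showed the biggest difference of the 4. Its level was -3.69, -3.03 and -3.26 on control 1, 2 and 3. On activin 1, 2 and 3 it was -3.78, -3.83 and -3.90. The activin values were close together and all below the control values, but control 1 came within 0.09 of activin 1. On activin 2 miR-10a was not detected, at 12.5 units before scaling, so the small spread rests partly on signal not well above background. The log2 fold change given below was -0.36 without control 2 and -0.69 without control 1. The means were -3.33 ± 0.34 and -3.84 ± 0.06 (SD, n = 3 each). The log2 fold change was -0.51 (SE 0.29, 95% interval -1.09 to 0.07, limma adjusted p = 0.427), an interval that runs from 0.470-fold to 1.05-fold. Groups were apart in this direction for 5 of the 79 tested miRNAs, or 6.33%, and miR-10a was 1 of these 5. The gap also depended on the scaling. The groups did not overlap with the reported, quantile or median scaling, and overlapped when unscaled, when scaled to spike-ins or to the percentile over all miRNA probes, and under normexp background.

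miR-10b, the Hoxd member, was at -3.70, -3.07 and -2.64 on the control arrays. It was at -3.10, -3.15 and -3.57 on the activin arrays, which all lay inside the range of the controls. Control spread was wide, with means of -3.14 ± 0.54 and -3.27 ± 0.25 (SD, n = 3 each). The log2 fold change was -0.14 (SE 0.30, 95% interval -0.72 to 0.45, limma adjusted p = 0.813). Without control 3, the array with the highest value, it turned to 0.11, and without activin 3 to 0.0075. Without control 1 it was -0.42, without activin 2 it was -0.36, and without both of these dim arrays it was -0.46 (limma unadjusted p = 0.0266, adjusted p = 0.433).

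miR-196a, which is read from genes in the Hoxb and Hoxc clusters, was at -2.61, -2.82 and -2.33 in control. With Activin it was at -2.65, -2.39 and -2.97. The groups overlapped almost wholly, with means of -2.58 ± 0.25 and -2.67 ± 0.29 (SD, n = 3 each). The log2 fold change was -0.08 (SE 0.29, 95% interval -0.66 to 0.50, limma adjusted p = 0.907). Without activin 2 it was -0.39 (limma adjusted p = 0.451). Its sign turned without control 3, at 0.047, and without activin 3, at 0.067. Without control 2 it was -0.20.

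miR-196b, from the Hoxa cluster, was at -3.40, -3.45 and -3.09 in control. With Activin it was at -3.32, -3.16 and -3.56. The groups again overlapped, with means of -3.31 ± 0.19 and -3.35 ± 0.20 (SD, n = 3 each). The log2 fold change was -0.04 (SE 0.29, 95% interval -0.62 to 0.54, limma adjusted p = 0.956), and it was -0.29 without activin 2. It turned to 0.074 without control 3 and to 0.069 without activin 3.

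The SEs of the 79 miRNAs lay between 0.293 and 0.310, because the fit pooled nearly all variance across miRNAs (194 prior degrees of freedom). The SEs above are thus nearly equal, although the SDs of miR-10a and miR-10b were larger in control than with Activin.

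**Figure D2:**
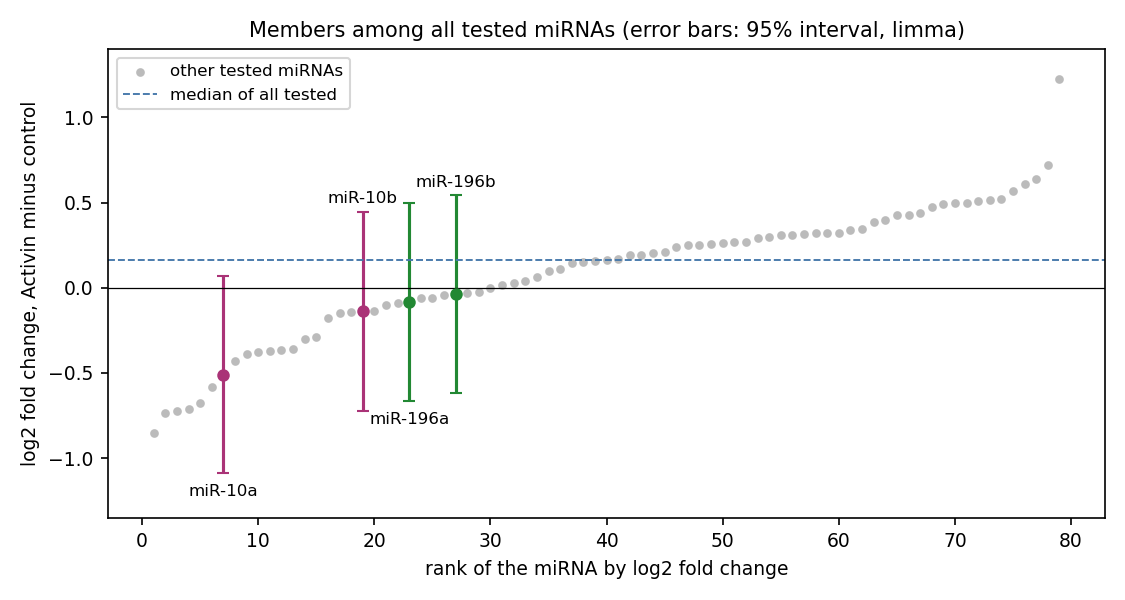
Log2 fold change of the 79 tested miRNAs, activin minus control, in rank order, with the members in colour and their 95% intervals as bars. miR-10a is at rank 7 from the lowest and the others at ranks 19, 23 and 27. The dashed line is the median of all tested miRNAs, 0.17. The interval of miR-10a includes 0 and lies below this line, and those of the other members include both. Intervals of some other tested miRNAs, among them miR-720 and miR-293, lie below it too. The intervals are for the difference from 0, so this is no test against the median.

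The choice of scaling moved all miRNAs together, so the members were also read against the median of the 79. This median was 0.17 with the reported scaling and -0.31 to 0.09 under 5 other scalings and normexp background. Under all 7 the 4 members were below it. Scaling an array by a single factor shifts all its miRNAs alike, so apart from the floor such scalings could not change this. Quantile scaling and normexp could, and they gave -0.76 and -0.41 for miR-10a. miR-10a stood at -0.67 relative to the median, and at -0.76 to -0.41 under the others. miR-10b stood at -0.30, and at -0.36 to -0.22 under the others. miR-196a stood at -0.25, with a range of -0.37 to -0.13, and miR-196b at -0.20, with a range of -0.30 to -0.20.

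Differences between members on the same array do not depend on a scaling factor, and they were read for their change between groups only, since probes bind with different strength. The pair miR-196a and miR-196b kept a near-constant difference. miR-196a minus miR-196b was 0.79, 0.63 and 0.76 in control and 0.67, 0.78 and 0.60 with Activin. Its range over all 6 arrays was 0.19, with group means of 0.73 ± 0.08 and 0.68 ± 0.09 (SD, n = 3 each). Across the 6 arrays the pair correlated at r = 0.975 on the log2 scale. This is a description that includes whatever the miRNAs of an array share through its brightness.

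The difference between miR-10a and miR-10b varied from array to array. miR-10a minus miR-10b was 0.01, 0.04 and -0.63 in control. With Activin it was -0.68, -0.68 and -0.34. Control 3 lay among the activin arrays and the groups overlapped, with means of -0.19 ± 0.38 and -0.56 ± 0.20 (SD, n = 3 each), a shift of -0.37. The pair correlated at r = 0.583 across the 6 arrays, with a range of 0.71 in its difference. No test was made of whether the miR-10 pair varied more than the miR-196 pair.

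By family, the mean of the miR-10 members shifted by -0.32 and that of the miR-196 members by -0.06. miR-10 minus miR-196 was -0.70, 0.09 and -0.24 in control and -0.46, -0.71 and -0.47 with Activin. Group means were -0.28 ± 0.39 and -0.55 ± 0.15 (SD, n = 3 each), and the shift of -0.26 was smaller than the SD of the control arrays. The groups overlapped for this difference. On activin 2 every member but miR-196a was below the detection threshold, so the differences on that array rest on signals not well above background.

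**Figure D3:**
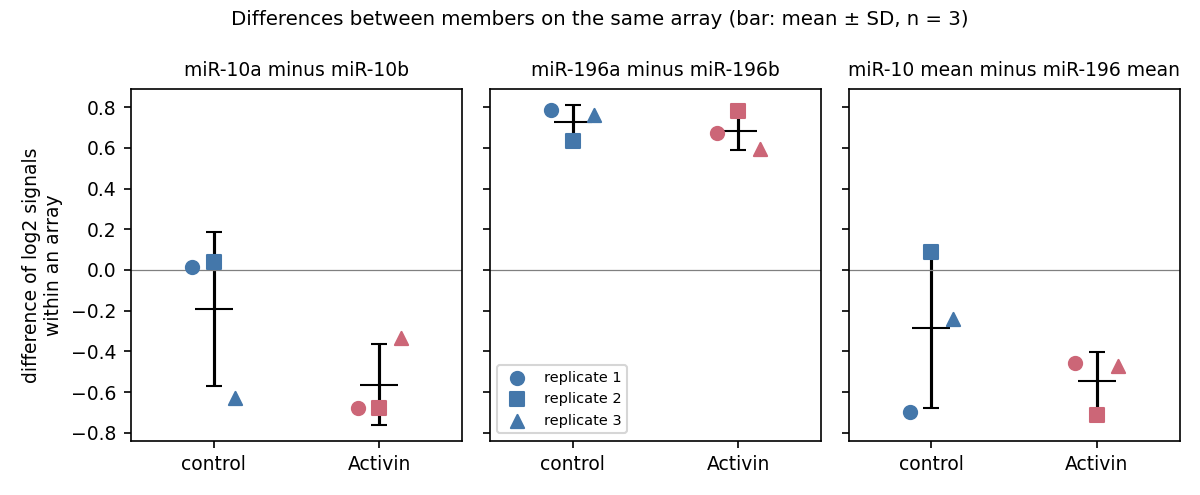
Difference of log2 signals between members on the same array, for each pair and for the family means, by group with mean and SD. The miR-196 pair stays between 0.60 and 0.79 on all 6 arrays, and the miR-10 pair runs from -0.68 to 0.04.

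The probes of a member share its target, so they are readings of 1 miRNA and not replicates. miR-10a, miR-10b and miR-196b had 2 probes each with 10 spots per array, and miR-196a had 4 with 5 spots. Of the 10 probes 5 passed the filter in the fit over 105 mouse miRNA probes, which called 1 probe, or 0.952%, and none of a member. The values below are background-subtracted intensities without scaling, with the SD over spots of the array.

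Of the 2 miR-10a probes, A_54_P1423 gave 30.3 ± 6.9, 117 ± 14 and 65.5 ± 8.8 units in control and 58.5 ± 4.9, 15.8 ± 4.9 and 56.4 ± 7.1 with Activin. On activin 2 the flag was set for 0 of its 10 spots and on control 1 for 7 of 10. Its log2 fold change was -0.65 (SE 0.29, 95% interval -1.23 to -0.06, unadjusted p = 0.0295, limma adjusted p = 0.299). After scaling its groups did not overlap, which held for 7 of the 105 probes in this direction (6.67%). The other probe, A_54_P1422, was detected on control 2 alone and was not tested. It shifted by -0.15 with groups that overlapped. The ratio of A_54_P1423 to it was 2.80 to 3.68 in control and 1.72 to 3.17 with Activin.

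For miR-10b, A_54_P2342 gave 27.9 ± 4.7, 109 ± 4 and 98.4 ± 6.7 units in control and 94.2 ± 3.8, 28.0 ± 7.5 and 68.0 ± 5.7 with Activin. Its log2 fold change was -0.17 (SE 0.30, limma adjusted p = 0.802). The coefficient of variation over its spots was 3.69% to 8.41% on the 4 brighter arrays. Its other probe, A_54_P2341, was detected on 3 arrays. The ratio of the 2 probes stayed between 2.35 and 2.89 on all 6 arrays. On control 1, activin 2 and activin 3, however, A_54_P2341 had 0 of 10 spots well above background.

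For miR-196a, probes A_54_P2465 and A_54_P2464 gave the same pattern. A_54_P2465 was at 69.4 ± 9.1, 150 ± 19 and 135 ± 5 units in control and 145 ± 8, 55.3 ± 9.7 and 119 ± 8 with Activin, and its ratio to A_54_P2464 was 0.999 to 1.16 on all arrays. Their log2 fold changes were -0.11 and -0.17 (SE 0.29 each, limma adjusted p = 0.880 and 0.802). A_54_P2463 was detected on 4 arrays and was not tested. A_54_P2462 was detected on none, with 2.56 to 8.73 units on 5 arrays but 19.1 ± 12.9 on activin 2, where its 5 spots ran from 0.936 to 32.7. It enters the mean of miR-196a, and with detected probes alone the log2 fold change of miR-196a was -0.14 in place of -0.08.

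For miR-196b 1 of the 2 probes was tested. A_54_P2704 gave 38.7 ± 5.6, 100.2 ± 15.5 and 82.8 ± 5.8 units in control and 100.1 ± 12.4, 35.0 ± 8.2 and 79.7 ± 11.9 with Activin. Its log2 fold change was 0.0085 (SE 0.29, limma adjusted p = 0.980). The ratio of A_54_P2704 to the other probe, A_54_P2703, ran from 4.46 to 8.07 over the arrays. A_54_P2703 was detected on no array, at 4.54 to 17.4 units. It enters the mean of miR-196b, and with detected probes alone the log2 fold change of miR-196b was 0.0085 in place of -0.04.

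**Figure D4:**
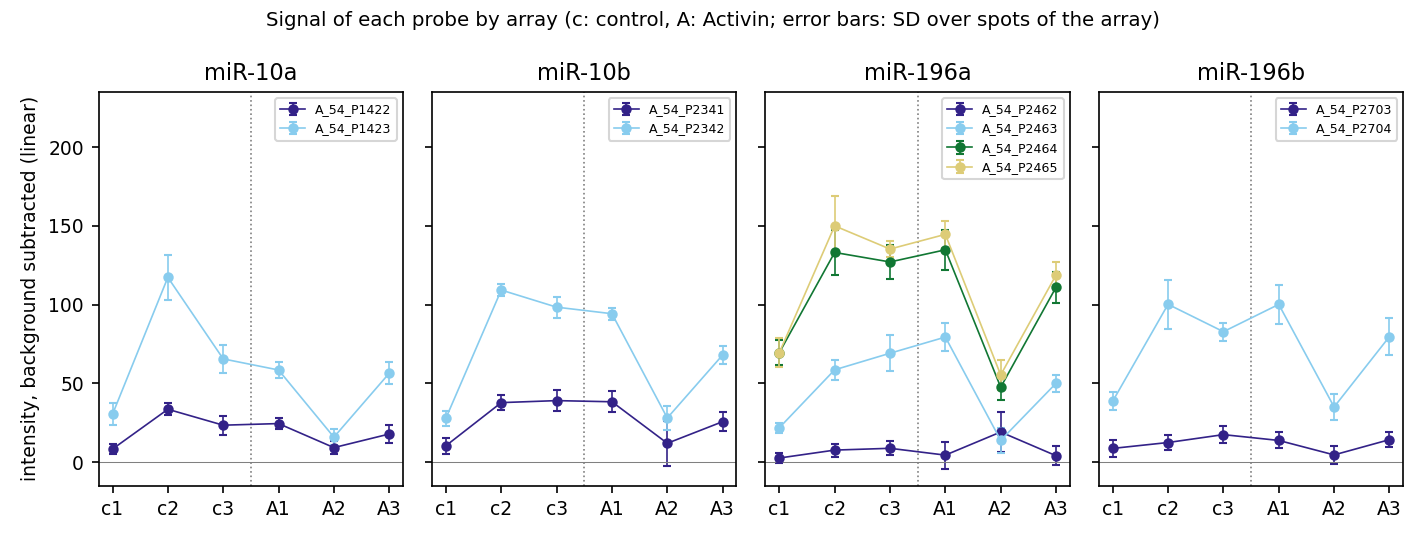
Background-subtracted intensity, linear and unscaled, of each probe on control arrays 1 to 3 and activin arrays 1 to 3, with the SD over spots as bars. The 5 tested probes are lowest on control 1 and activin 2. A_54_P1423 of miR-10a reaches 117 units on control 2 and at most 65.5 on the other arrays.

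The slide layout left few comparisons within a position. Column 1 held control 1 with activin 2, and column 2 held control 2 with activin 3, so each gave 1 array against 1. Activin minus control for miR-10a was -0.14 in column 1 and -0.87 in column 2. Column 1 set the 2 dim arrays against each other, and miR-10a was not detected on activin 2. Its sign in column 1 therefore cannot show that the columns match. For miR-10b it was 0.55 and -0.50. The values of miR-196a were 0.22 and -0.15, and those of miR-196b 0.23 and -0.11, so these 3 members changed sign between columns. In slide row 1, which held all controls and activin 1, activin 1 differed from the mean of the controls by -0.45 for miR-10a, 0.03 for miR-10b, -0.06 for miR-196a and -0.01 for miR-196b. Columns 3 and 4 held 1 array each and add nothing to the estimate of a fit with column as a block. That fit gave the mean of the 2 column differences, -0.50, 0.027, 0.038 and 0.060 in the same order (limma adjusted p of 0.497 or more). The direction of all but miR-10a thus turned, but this rests on the same 2 differences and is no separate reading.

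The passenger strands and the remaining Hox cluster miRNAs gave no signal. Of 5 other Hox cluster miRNAs on the array, miR-10a*, miR-10b*, miR-196a-2*, miR-615-3p and miR-615-5p, none was detected on any array. miR-615 comes from within Hoxc5. The star strands lay at -5.16 to -1.32 units, below 0 after background subtraction, and miR-615-3p reached at most 7.71 units. The hairpins show the arms concerned, in capitals, with the measured member to the left and its star strand to the right.
Mir10a: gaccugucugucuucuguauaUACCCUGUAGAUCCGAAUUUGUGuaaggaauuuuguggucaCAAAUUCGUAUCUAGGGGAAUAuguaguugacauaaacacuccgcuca
Mir10b: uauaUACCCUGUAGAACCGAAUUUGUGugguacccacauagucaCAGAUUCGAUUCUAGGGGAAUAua
Mir196a-2: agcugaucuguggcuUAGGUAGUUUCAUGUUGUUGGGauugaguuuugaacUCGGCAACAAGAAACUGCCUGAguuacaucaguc

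For Mir10a and Mir10b the left arm was thus detected on most arrays in both groups while the right arm was not. miR-196a signal cannot be assigned to Mir196a-2, since Mir196a-1 gives the same mature sequence. This holds for signal over background alone, since probes for the arms may bind with different strength.

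miRNAs related to the members in sequence showed no call either. miR-100 and miR-99a share a long run of bases with miR-10a but have another seed, and let-7a carries the miR-196 seed letters 1 base further in. The runs shared with miR-10a and miR-196a are in capitals.
miR-100: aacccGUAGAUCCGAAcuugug
miR-99a: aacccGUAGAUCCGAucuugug
let-7a: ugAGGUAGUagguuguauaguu

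The run was 11 bases for miR-100, 10 for miR-99a and 7 for let-7a. let-7e shares only 6 bases with miR-196a and lacks the last letter of the seed. Of 5 relatives of miR-10 on the array 4 were tested and 0 were called, with 2 below and 2 above 0 and a median of 0.03. miR-100 had a log2 fold change of -0.58 (SE 0.30, limma adjusted p = 0.405), miR-99a -0.10, miR-125b-5p 0.15 and miR-125a-5p 0.35. Of 9 let-7 family miRNAs, the relatives of miR-196, 8 were tested and 0 called, 7 below 0 and 1 above, with a median of -0.12. miR-100 was thus the relative with a value near that of miR-10a, and it too was detected on 2 of the 3 activin arrays.

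The tested miRNAs whose pattern over the 6 arrays was most like that of each member were found by Pearson correlation of log2 scaled signal among the 75 tested miRNAs outside the families. For miR-10a they were miR-720, an annotated miRNA later reclassified as a tRNA fragment, with r = 0.937 and let-7d with r = 0.848. For miR-10b they were miR-20a with r = 0.830 and let-7f with r = 0.800. miR-709 and miR-135a-1* came nearest to both miR-196a (r = 0.914 and 0.856) and miR-196b (r = 0.843 and 0.827). The median r over the 75 was -0.01 for miR-10a, 0.47 for miR-10b, 0.21 for miR-196a and 0.30 for miR-196b. With only 6 arrays, and all miRNAs of an array sharing its brightness, these are descriptions.

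Marker sums of other cell types are given beside these values. The summed scaled signal of 6 mesenchymal marker miRNAs was 1.76 to 2.49 in control and 2.68 to 2.91 with Activin. Of the 6, 4 were tested, 0 were called and all 4 were above 0, as were 50 of the 79 tested miRNAs. miR-143 and miR-145 of the mesenchymal list were detected on no array. The sum of 4 untested muscle markers was 0.040 to 0.060 in control and 0.062 to 0.092 with Activin, likewise without overlap. Of these 4 only miR-133b was detected, on 1 activin array. The muscle sum is thus mostly signal not well above background and is not read as a change. Among single tested miRNAs the groups did not overlap, in either direction, for 14 of the 79, or 17.7%. The 2 tested epithelial markers were above 0, but the epithelial sums overlapped between groups. So did the sums of neural, of blood, and of liver, islet and endothelial markers. The sum of 11 ES and epiblast markers was 16.0, 6.27 and 8.30 in control and 5.96, 7.70 and 5.94 with Activin, with the highest value on the dim control 1. Of these markers 6 were tested, 5 were below 0 and 1 was called higher, miR-302c, with a log2 fold change of 1.23 (SE 0.30, limma adjusted p = 0.00597). miR-302c was detected on 2 control and 3 activin arrays, so it passed the filter through the activin arrays alone. Its groups overlapped, and the call was lost under 20 of 25 alternatives. The part of such shifts in the values of miR-10a was not tested.

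**Figure D5:**
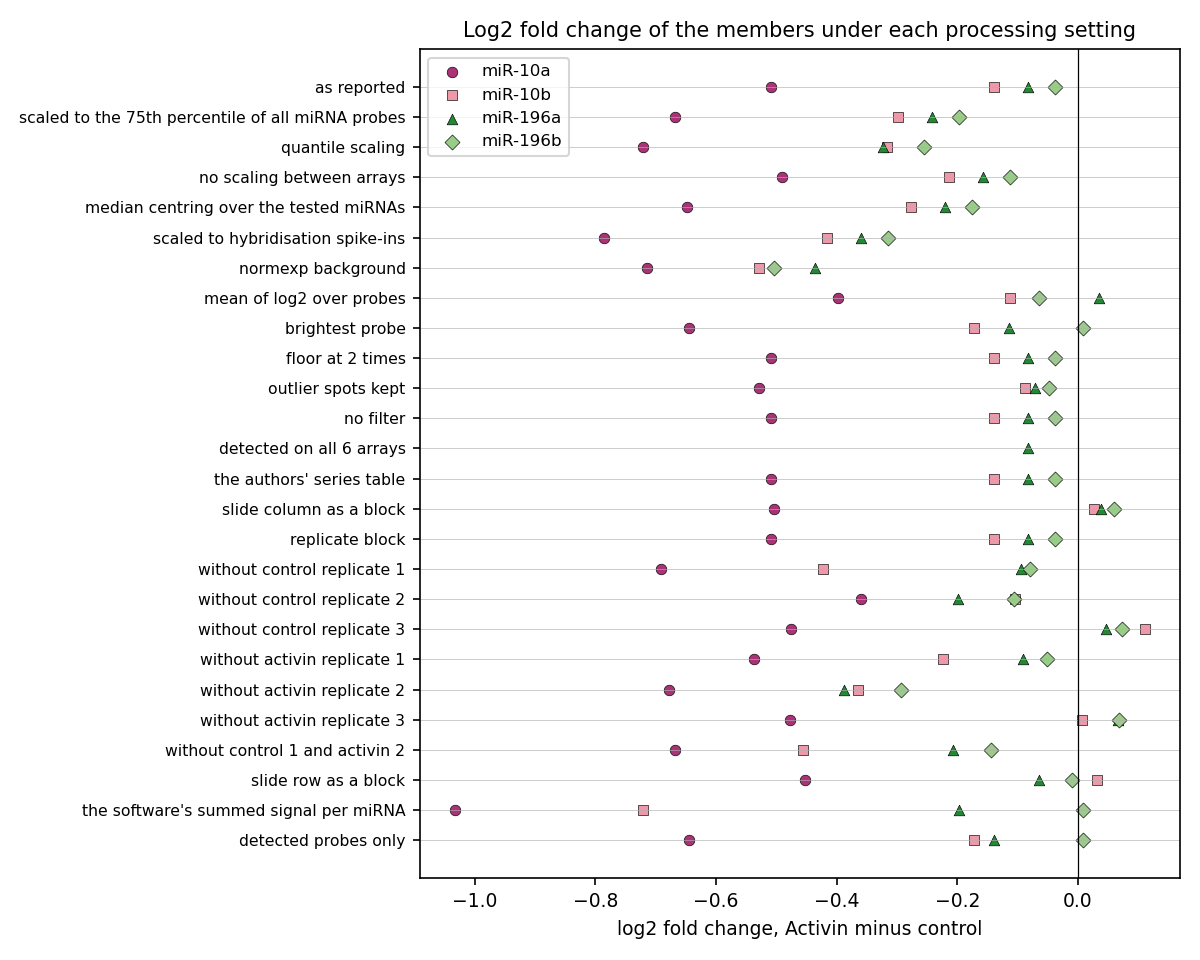
Log2 fold change of each member, activin minus control, under the reported processing and each alternative. miR-10a lies below 0 in every row, from -1.03 to -0.36 among the 24 alternatives, and the others lie on both sides of 0. The rows for the series table, no filter, the replicate block and the higher floor repeat the reported values.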

How the data were processed

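The 6 deposited scanner files give linear, background-subtracted intensity per spot. The software is Agilent Feature Extraction 10.7.3.1 per the file headers and 10.1.1 per the submitters' processing notes. The deposited series table held the same values. Flags for spots well above background and outliers are the authors' deposited software calls.

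Spots without outlier flags gave a mean per probe, and probes a mean per miRNA, which was divided by the array's 75th percentile over probes detected on all arrays, floored at 0.0326 and converted to log2. limma 3.58.1 (R 4.3.3, lmFit and eBayes, two-sided) compared activin with control, and was tested on simulated data. The files hold median spot signals, which stood in for mean signals under normexp (offset 50). The members, the lists and the tests were chosen with earlier results of these data known, so they carry no independent support. The named miRNAs were the members, the listed relatives and the 2 miRNAs most correlated with each member. The array design names mm9 and the RefSeq sequences GRCm38.p6, so coordinates come from RefSeq alone. Alternatives covered scaling, background, probe summary, floor, filter, blocks and left-out arrays. No spot was saturated.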

Additional observations from a re-analysis of the deposited data

How the results depend on the processing

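No member was called under any of the 25 alternatives, with lowest adjusted p of 0.174 for miR-10a (unadjusted p under 0.05 in 8 of 24), 0.387 for miR-10b and miR-196a and 0.392 for miR-196b. The count called among all tested miRNAs went from 1 to 0 under 20 alternatives. miR-10a was below 0 in all 24 in which it was fitted, at -0.69 to -0.36 on leaving out 1 array. It went down to -1.03 with the software's summed signal, where activin 2 is listed at 0.1 units. The 24 are not separate readings of its direction. It stayed at the reported -0.51 with the series table, no filter, the replicate block and the floor at 2 times. The brightest probe and detected probes only gave the same value, -0.65. Other members turned sign under some alternatives and moved further below 0 under others. With normexp miR-10b was at -0.53, miR-196a at -0.44 and miR-196b at -0.50, while the summed signal gave -0.72 for miR-10b and -0.20 for miR-196a. miR-10b was at 0.027 with slide column as a block, 0.031 with slide row as a block and -0.42 to 0.11 without 1 array. miR-196a was at 0.035 with the mean of log2 over probes, 0.038 with the column block and -0.39 to 0.067 without 1 array. miR-196b was at 0.0085 with the brightest probe, the summed signal or detected probes only, 0.060 with the column block and -0.29 to 0.074 without 1 array. The median of the members was -0.52 with normexp, -0.46 with the summed signal, 0.033 with the column block and -0.38 to 0.060 without 1 array. The family difference was -0.78 with the summed signal and -0.47 to -0.08 without 1 array. Probe A_54_P2704 of miR-196b was at -0.15 with the percentile of all probes, -0.39 with normexp, -0.066 without scaling and -0.26 to 0.13 without 1 array, A_54_P2342 of miR-10b at -0.46 to 0.065 and A_54_P2465 of miR-196a at -0.42 to 0.017. The cause was not tested. With the replicate number of the titles as a block the adjusted p = 0.679 for miR-10a, 0.871 for miR-10b, 0.942 for miR-196a and 0.966 for miR-196b. Deviations of same-numbered arrays from their group means correlated at -0.64, -0.09 and 0.34. The dim control 1 and activin 2, which differ in number, correlated at 0.55. With so few arrays, these values cannot tell whether the numbers pair the samples. Slide row as a block, the summed signal and detected probes only were chosen after seeing the data.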
